A study of Mus musculus with 12 samples.

Results

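The T cell receptor beta chains (TRB) with a short or a long CDR3, the most variable of their complementarity-determining regions, are described here, from immune cells sorted from the brain parenchyma and meninges of mice. Every productive TRB contig was taken, each CDR3 nucleotide sequence was counted once per library, and the sequences were put in fixed classes by the length of the translated CDR3, from its conserved cysteine to its last residue. Short means 12 or fewer amino acids and long means 16 or more, and both are set against 13 to 15. Of 4109 sequences, summed over 6 libraries, 605 (14.7%) were short, 555 (13.5%) were long and 2949 (71.8%) had 13 to 15 amino acids. Sequences just inside and just outside the class limits were common, with 431 of 12, 712 of 13, 940 of 15 and 410 of 16 amino acids.

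The study sorted CD45+ immune cells from C57BL/6 mice with the 5xFAD transgenes (5xFADTg) and from mice without them (NonTg), and made receptor libraries with a Chromium droplet kit for immune profiling (v2). The 5xFAD transgenes are driven by the Thy1 promoter, which acts in neurons, and the mice serve as a model of amyloid deposition in Alzheimer's disease. There were 2 parenchymal libraries of each genotype and 1 meningeal library of each genotype. The labels give no age, sex or number of mice per library, so what separates replicate libraries may be technical alone, and the 2 meningeal libraries have no replicate. Gene expression was not analysed here, so no marker of T cells other than the receptor itself was checked.

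A beta chain is made in the thymus by joining 1 V, 1 D and 1 J segment of the TRB locus. Nucleases trim the segment ends and terminal deoxynucleotidyl transferase adds bases without a template, so the CDR3 is the part of the chain that differs most between T cells. The loop it forms sits at the centre of the receptor and usually touches the peptide held by an MHC molecule. The TRB locus holds 2 clusters, each with a D segment followed by its J segments, and the D segment of the second cluster lies downstream of all J segments of the first.

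The 6 libraries held 407 to 2058 cells with a productive TRB and 336 to 1103 distinct TRB sequences, with a median of 7 to 9 unique molecular identifiers (UMIs, which mark single cDNA molecules) per TRB. The UMIs of all listed contigs summed to 49997 to 128700 per library. A second TRB was present in 431 of 6826 cells, and such a cell counts under both of its sequences. Of 7034 barcodes, 21 occurred in more than 1 library and none of them with the same TRB. Meningeal and parenchymal libraries of a genotype shared sequences, so the libraries are not independent in the tests below.

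The germline parts that lie inside the CDR3 differ in length between segments, and they set the frame for the results on V, D and J use. They are written 5′ to 3′ from GENCODE M21 transcripts (GRCm38), starting at the conserved cysteine codon for V and ending at the last CDR3 codon for J. They are shown for V and J segments whose share differed between the classes and for both D segments.
TRBV20: tgtggtgctaggga
TRBV2: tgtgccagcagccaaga
TRBV5: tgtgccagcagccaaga
TRBJ2-7: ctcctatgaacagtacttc
TRBJ1-2: caaactccgactacaccttc
TRBJ1-6: ttcctataattcgcccctctacttt
TRBD1: gggacagggggc
TRBD2: gggactgggggggc
TRBV20 contributes 14 bases before trimming and TRBV2 and TRBV5 contribute the same 17 bases. TRBJ2-7 contributes 19 bases, TRBJ1-2 contributes 20 and TRBJ1-6 contributes 25. All lie on chromosome 6, TRBV20 at 41188273 to 41188977, TRBD1 at 41533201 to 41533212, TRBJ1-6 at 41535554 to 41535606, TRBD2 at 41542163 to 41542176 and TRBJ2-7 at 41543810 to 41543856.

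Members of the 2 classes show how these parts were put together, with the bases between the V match and the J match in capitals. The first 3 are the short sequences found in most cells, the next 3 are the long ones found in most cells, and the last 2 are the shortest that could be matched and the longest.
Short, TRBV1 and TRBJ2-5, 133 cells: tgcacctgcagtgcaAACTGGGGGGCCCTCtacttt
Short, TRBV13-2 and TRBJ1-1, 71 cells: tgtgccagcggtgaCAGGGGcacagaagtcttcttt
Short, TRBV1 and TRBJ1-5, 56 cells: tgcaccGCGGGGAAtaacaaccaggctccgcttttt
Long, TRBV5 and TRBJ1-1, 82 cells: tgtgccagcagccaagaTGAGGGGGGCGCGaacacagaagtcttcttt
Long, TRBV1 and TRBJ1-4, 77 cells: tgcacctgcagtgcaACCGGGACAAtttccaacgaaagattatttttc
Long, TRBV19 and TRBJ2-1, 35 cells: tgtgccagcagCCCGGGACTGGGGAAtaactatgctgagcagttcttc
Shortest, TRBV20 and TRBJ2-7, 2 cells: tgtggtgctagacagtacttc
Longest, TRBV13-2 and TRBJ2-3, 1 cell: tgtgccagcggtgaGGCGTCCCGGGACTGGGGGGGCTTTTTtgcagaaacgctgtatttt
The shortest sequence codes for 7 amino acids and held no base between V and J: 11 bases matched TRBV20 and 10 matched TRBJ2-7. The longest codes for 20 amino acids and held 27 bases between V and J, of which a run of 14 matched TRBD2 in full. The 3 short sequences of most cells kept 6, 16 and 22 bases of their J segment, in the order shown, and the long ones kept 18 to 23. The end of the first also matches germline TRBJ1-6 over a longer run than its labelled TRBJ2-5. That J label was not checked.

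Length was distributed alike in the 6 libraries, with a single peak at 14 amino acids. Short sequences ran from 7 to 12 amino acids, and 431 of the 605 stood at 12 and 129 at 11. Long sequences ran from 16 to 20, and 410 of the 555 stood at 16 and 116 at 17. The short share was 12.9% and 15.6% in NonTg parenchyma, 16.6% and 15.6% in 5xFADTg parenchyma, and 12.5% in each meningeal library. The long share was 13.5% and 11.8% in NonTg parenchyma, 13.5% and 13.4% in 5xFADTg parenchyma, 13.99% in NonTg meninges and 15.9% in 5xFADTg meninges. Of the short sequences, 2 ended without the usual phenylalanine, both from 1 cell each of 5xFADTg parenchyma replicate 1.

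**Figure D1:**
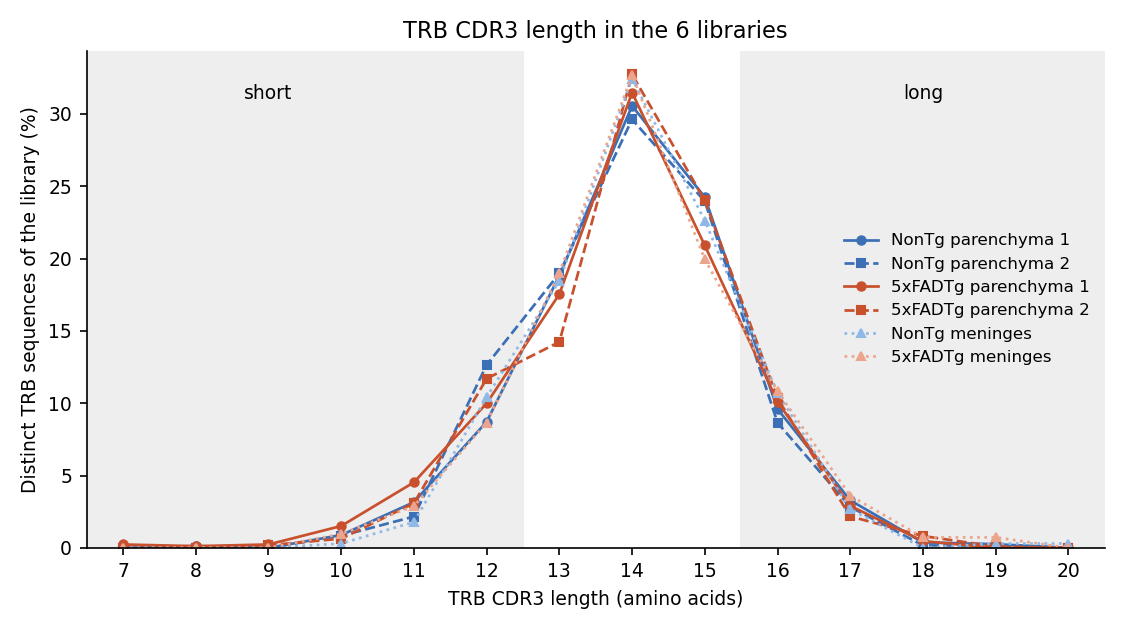
Share of distinct TRB sequences (%) against CDR3 length in amino acids, 1 line per library, with the short and long classes shaded. All 6 lines peak at 14 amino acids, and 5xFADTg parenchyma replicate 2 has the lowest share at 13.

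J segments code for the end of the CDR3, and their use differed between the classes. TRBJ2-7 took 37.8% ± 6.17 of short sequences, 18.8% ± 2.23 of those of 13 to 15 and 6.65% ± 1.99 of long ones (mean over libraries ± SD, n = 6). In the short class its share was 35.3% and 30.9% in NonTg parenchyma, 41.3% and 39.0% in 5xFADTg parenchyma, 47.6% in NonTg meninges and 32.7% in 5xFADTg meninges. In the class of 13 to 15 it was between 15.96% and 21.5%, below every value of the short class. Its log2 fold change against 13 to 15 was 1.06 (SE 0.09) in short and -1.52 (SE 0.16) in long sequences, with edgeR adjusted p of 6.72e-17 and 3.54e-11.

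Each class was compared with 13 to 15 by edgeR's quasi-likelihood test on sequences per segment, with library as a block. Of 35 V, D and J segments tested, 13 passed an adjusted p of 0.05 in the short class (37.1% of those tested), 4 higher and 9 lower. In the long class also 13 passed (37.1%), 8 higher and 5 lower. Every sequence has 1 V and 1 J, so a higher share of 1 segment lowers the others. The germline bases of V and J are part of the CDR3 length that defines the classes. The tests of V and J segments, TRBJ2-7 included, are therefore not independent of the class limits. With TMM factors, which set the middle of all segments to no change, the long class had 8 higher and 8 lower and the log2 values shifted by a median of -0.17. DESeq2 called 7 of the 13 in the short class, without TRBJ1-1, TRBJ1-3, TRBV2, TRBV3, TRBV5 and TRBD2, and the same 13 in the long class. With every sequence weighted by its cells, 3 of the 13 short calls remained (TRBJ2-1, TRBJ1-4 and TRBD1) and 8 of the 13 long ones, without TRBJ1-1, TRBJ2-2, TRBJ2-3, TRBJ2-4 and TRBV16.

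Among the other J segments, TRBJ1-1 was higher in short sequences at 15.7% ± 7.56 against 10.8% ± 1.62 (log2 0.61, SE 0.16, edgeR adjusted p 0.00197). It was higher in 5 of 6 libraries, and the exception was NonTg meninges with 2.38% against 12.6%. This call was lost without NonTg parenchyma replicate 1. In long sequences TRBJ1-1 fell to 4.26% ± 2.06 (log2 -1.43, SE 0.25, edgeR adjusted p 1.73e-06), lower in 6 of 6 libraries.

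TRBJ2-1, TRBJ1-4, TRBJ2-2 and TRBJ1-3 were lower in the short class. TRBJ2-1 took 5.17% ± 2.01 of short sequences against 11.8% ± 2.07 and was lower in 6 of 6 libraries, as were TRBJ1-4 (3.0% ± 1.40 against 6.73% ± 1.11) and TRBJ2-2 (2.40% ± 0.920 against 6.37% ± 1.73). Their log2 fold changes were -1.07, -1.36 and -1.41. The TRBJ1-3 call (log2 -1.01) was lost when either 5xFADTg parenchymal library was left out.

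In the long class the J segments that were higher were TRBJ2-3, TRBJ2-4, TRBJ1-6 and TRBJ2-2. TRBJ2-3 took 14.2% ± 2.99 of long sequences against 7.66% ± 1.59 of those of 13 to 15 (log2 0.98, SE 0.19, edgeR adjusted p 3.39e-06), higher in 6 of 6 libraries. TRBJ2-4 (14.1% ± 2.15 against 8.5% ± 1.36) and TRBJ1-6 (7.18% ± 1.86 against 2.72% ± 0.677) were also higher in 6 of 6, and TRBJ2-2 in 5 of 6, with NonTg meninges as the exception. Among J segments the strongest fall was that of TRBJ1-2, which took 1.46% ± 0.971 against 7.48% ± 0.879, lower in 6 of 6 libraries (log2 -2.56, SE 0.40, edgeR adjusted p 9.09e-09).

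V segments code for the start of the CDR3 and for the 2 germline loops. TRBV20 made up 6.79% ± 3.13 of short sequences, 2.49% ± 0.928 of those of 13 to 15 and 0.253% ± 0.619 of long ones. Only 1 long sequence used it, in 5xFADTg meninges, against 43 short ones in all. In the short class its share was 4.90% and 11.7% in NonTg parenchyma, 7.69% and 6.40% in 5xFADTg parenchyma, 2.38% in NonTg meninges and 7.69% in 5xFADTg meninges, and NonTg meninges was the 1 library where it did not exceed the 3.24% of 13 to 15. The log2 fold changes were 1.53 (SE 0.30) in short and -3.37 (SE 0.84) in long sequences, with edgeR adjusted p of 1.39e-05 and 0.000333, and the second rests on that single sequence.

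TRBV29 was the other V segment that was higher in short sequences, at 10.0% ± 3.39 against 4.89% ± 1.48, in 6 of 6 libraries (log2 0.82, SE 0.24, edgeR adjusted p 0.00282). TRBV3, TRBV5 and TRBV2 were lower in short sequences in 6 of 6 libraries, at log2 values of -0.79, -0.85 and -1.25. The calls of TRBV5 and TRBV2 were lost when any of the 4 libraries other than the 2 of 5xFADTg parenchyma was left out, and with TMM factors, at least 2 UMIs, cells with 1 TRB or each sequence counted once per genotype.

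TRBV2 and TRBV5, whose germline CDR3 parts are identical, were both higher in long sequences in 6 of 6 libraries. TRBV2 took 7.34% ± 3.32 of long sequences against 3.07% ± 1.38 (log2 1.39, SE 0.30, edgeR adjusted p 2.48e-05) and TRBV5 took 10.4% ± 1.57 against 5.62% ± 1.54 (log2 0.91, SE 0.24, edgeR adjusted p 0.000497). TRBV16 was higher as well (log2 0.76), but not past the threshold without 5xFADTg meninges or without 5xFADTg parenchyma replicate 2. The segment labelled TRBV10 was lower (log2 -1.27), a call lost without NonTg parenchyma replicate 1 or 5xFADTg parenchyma replicate 2. Its label is uncertain: GENCODE M21 lists TRBV10 as a pseudogene, no TRBV4 label occurs, and 147 of the 178 sequences with the label start with 12 bases of the germline TRBV4 CDR3 part and 0 with those of TRBV10. The TRBV13 segments, which are among the most used in mice, made no call in either class, although TRBV13-3 passed in the long class with TMM factors and with limits of 11 and 17 amino acids. TRBV13-2 stood at 12.2% ± 1.94 of short, 12.9% ± 1.66 of 13 to 15 and 14.2% ± 2.69 of long sequences. It had 524 sequences in all, and the joint label TRBV12-2+TRBV13-2, which 452 sequences carried, was counted as TRBV13-2.

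**Figure D2:**
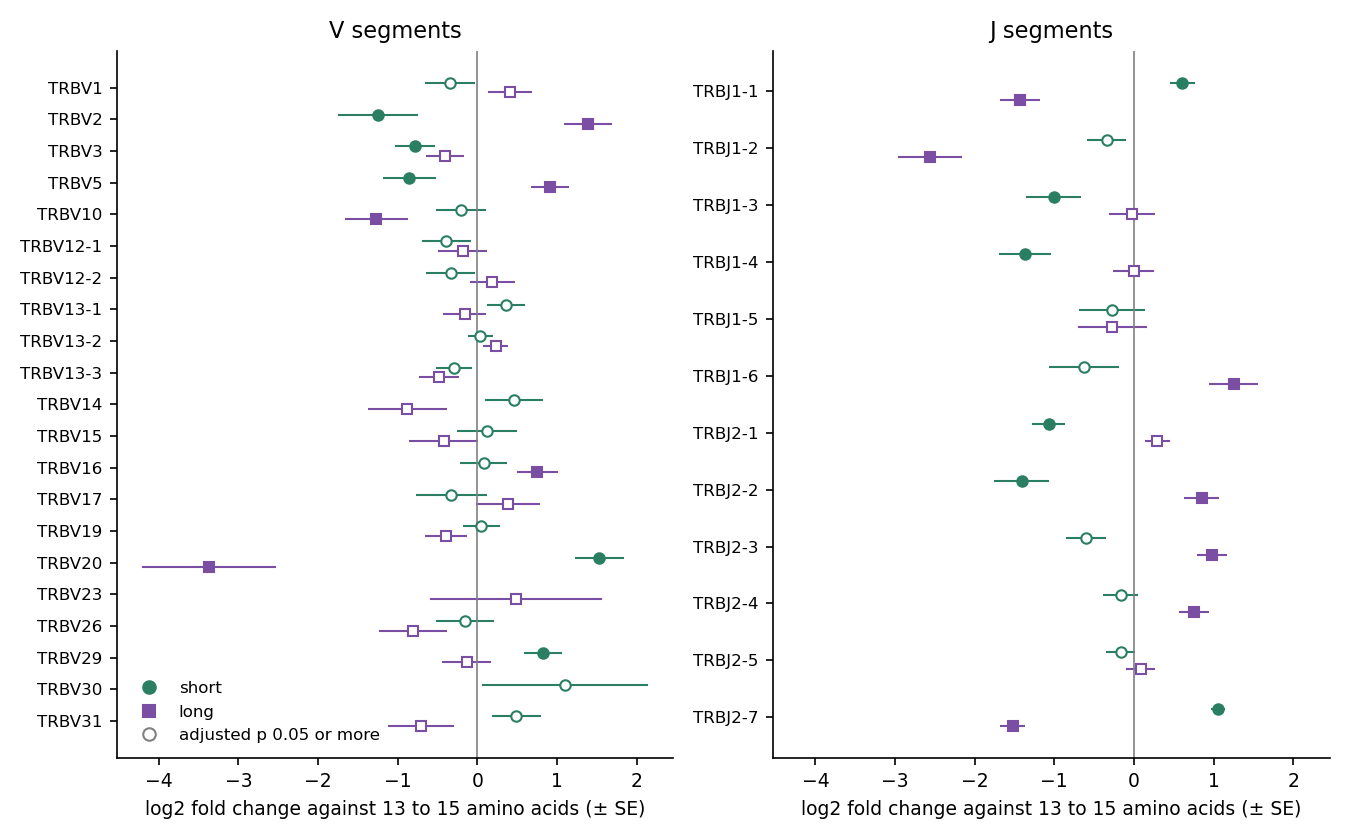
log2 fold change of each TRB V (left) and J (right) segment in short (circles) and long (squares) sequences against those of 13 to 15 amino acids, with SE; filled symbols have an edgeR adjusted p under 0.05. Segments without a sequence in a class are not drawn for it. TRBJ2-7, TRBJ1-1 and TRBV20 stand to the right of 0 in short and to the left in long sequences, and TRBV2, TRBV5 and TRBJ2-2 the other way round.

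The germline length of a segment ran with the class shares of its sequences, but not at every step. The 3 V segments with 14 germline bases in the CDR3 (TRBV20, TRBV30 and TRBV31) had 28.3% of their 276 sequences in the short class and 4.71% in the long class. The 10 with 17 bases had 12.6% and 16.7% of 1716 sequences. In between, the order was not kept. The 2 with 15 bases had 11.7% short and 14.1% long, and the 5 with 16 bases had 15.6% and 12.2%. TRBV29, with 17 bases, had 24.0% of its sequences in the short class. Over 20 V segments, germline length had a Pearson r of -0.66 with the short share (Spearman rho -0.57) and 0.63 with the long share (rho 0.58). For J segments, TRBJ2-7 with 19 bases had 28.6% of its 798 sequences short and 4.39% long, TRBJ1-1 and TRBJ1-2 with 20 bases had 19.2% and 4.08%, and TRBJ1-6 with 25 bases had 8.27% and 28.6% of 133. J segments of 21, 22 and 23 bases had long shares of 19.6%, 15.8% and 19.5%. Over 12 J segments r was -0.77 with the short share (rho -0.86) and 0.75 with the long share (rho 0.69). These correlations describe segments that share the same libraries and differ in number of sequences, and germline length is itself part of the CDR3 length.

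**Figure D3:**
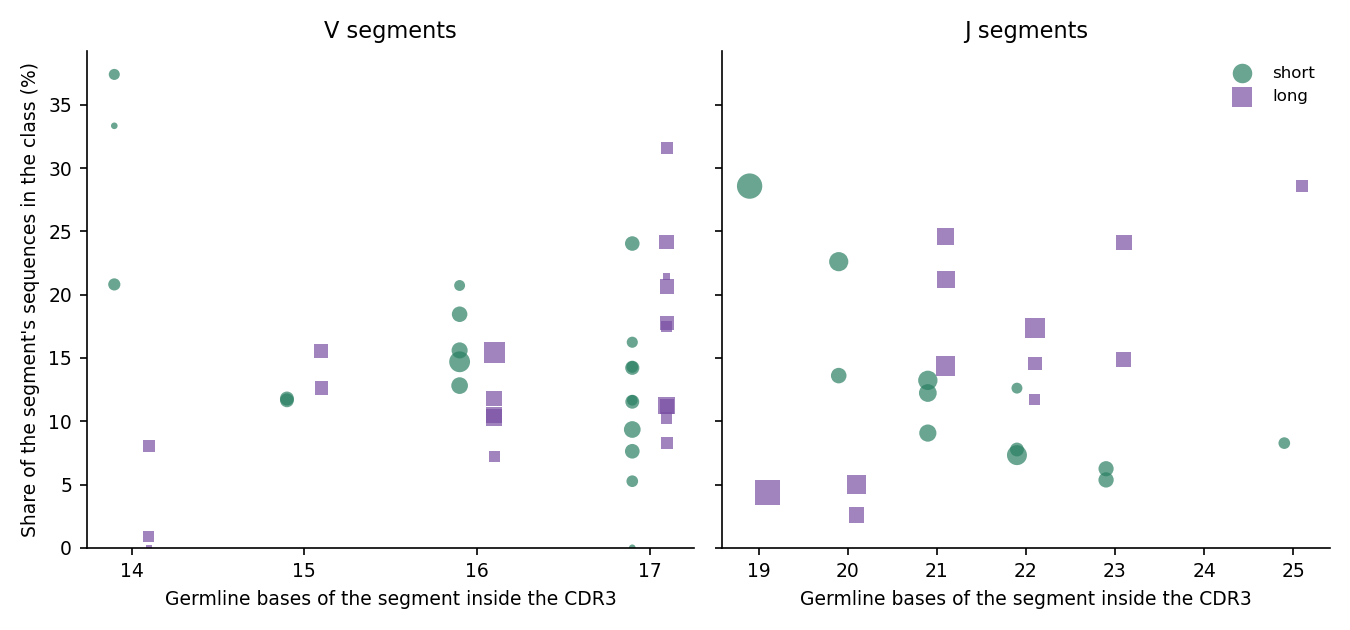
Share of each segment's sequences that are short (circles) or long (squares) against the number of germline bases that the V (left) or J (right) segment has inside the CDR3; symbol area grows with the number of sequences. TRBJ2-7, with 19 bases, has 28.6% short and 4.39% long sequences, and TRBJ1-6, with 25 bases, has 8.27% and 28.6%.

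Pairs of V and J, chosen after their values were seen, covered a wider range. Of the 108 sequences that joined TRBV13-2 to TRBJ2-7, 34.3% were short and 7.41% long. Of the 55 that joined the same V to TRBJ2-1, 7.27% were short and 27.3% long. Among pairs with 20 or more sequences, the largest short share was 42.9% of 21 (TRBV14 with TRBJ2-7) and the largest long share was 47.6% of 21 (TRBV12-2 with TRBJ2-2).

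The bases between V and J carried most of the difference in length. The 178 sequences labelled TRBV10 were left out, and the V and J ends of the other 3931 were compared with germline. Short sequences had 6.33 ± 0.520 bases between V and J, those of 13 to 15 had 10.1 ± 0.118 and long ones had 14.1 ± 0.340 (mean over libraries ± SD, n = 6). The V match was 12.7 ± 0.400, 13.6 ± 0.0781 and 14.8 ± 0.139 bases, and the J match was 15.9 ± 0.364, 18.5 ± 0.186 and 20.2 ± 0.265 bases. Measured against each segment's own germline end, short sequences had lost 3.29 ± 0.311 bases of V and 4.42 ± 0.409 of J, and long ones 1.62 ± 0.167 and 1.51 ± 0.170. No base between V and J was found in 19 short sequences, 1 of 13 to 15 and 0 long ones. The 3 parts add up to the CDR3, so these values describe the classes and were not tested.

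**Figure D4:**
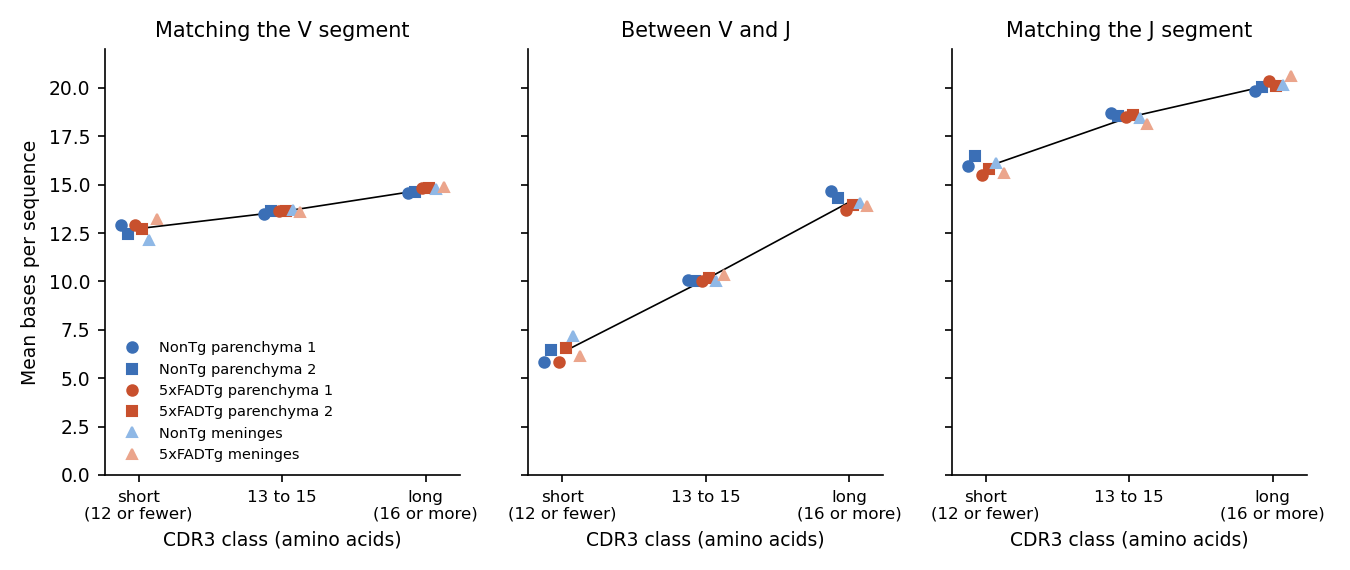
Mean number of CDR3 bases that match the V segment (left), lie between V and J (middle) and match the J segment (right), by class, with 1 symbol per library and a line through the mean of the 6. The middle part goes from 6.33 to 14.1 bases, the V part from 12.7 to 14.8 and the J part from 15.9 to 20.2.

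D segments were rarely named in the files, and never in a short sequence. A D label stood on 0 of 605 short sequences, which allows a share of up to 0.496%, on 2.44% of those of 13 to 15 and on 7.75% of long ones. The share was thus at least 4.92-fold lower in short sequences, with the floor of 3 counts taken over the class. TRBD2 labels were more frequent in long sequences in 6 of 6 libraries (4.27% ± 3.09 against 0.740% ± 0.465, log2 2.56, SE 0.50, edgeR adjusted p 3.39e-06). The TRBD1 label was at least 3.56-fold lower in short sequences and, in long ones, 3.54% ± 1.59 against 1.80% ± 0.742 (adjusted p 0.0869). The TRBD2 call in the short class was lost whichever library was left out. The labels cover few of the sequences with D bases: the 109 labelled ones outside TRBV10 matched their D by 7 or more bases, and 2307 without a label held a D match of 6 or more. A longer stretch between V and J has more room for such a run. The tests of D labels are therefore not independent of the class limits.

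Counted from such matches of 6 or more bases, the share with the D segment of the same cluster was higher in the longer classes. Among sequences with a TRBJ2 segment, TRBD2 was the better match in 12.1% of short ones (8.20% to 17.2% over the libraries), 44.1% of those of 13 to 15 (40.7% to 46.9%) and 73.4% of long ones (66.0% to 83.3%). Among sequences with a TRBJ1 segment, TRBD1 was the better match in 25.5% of short, 49.8% of 13 to 15 and 68.3% of long ones. TRBD1 in TRBJ2 sequences did not follow length, at 20.2% of short, 25.1% of 13 to 15 and 16.5% of long ones, and in short TRBJ2 sequences it was the better match more often than TRBD2. TRBD2, which lies downstream of the TRBJ1 cluster, was the better match in 2.72%, 3.17% and 3.45% of TRBJ1 sequences. Runs of 6 bases of G-rich D segments can occur in added bases, and a longer stretch between V and J has more places for a match, so the classes were not tested against each other.

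The residues coded wholly between V and J also differed in kind. Short sequences had 866 such residues (1.49 per sequence), those of 13 to 15 had 7525 (2.68) and long ones 2187 (4.02). Glycine, which all 3 reading frames of the G-rich D segments can give, made up 33.9% ± 3.16 of them in short, 37.6% ± 1.2 in 13 to 15 and 41.3% ± 2.22 in long sequences, with overlap between the libraries of neighbouring classes. Acidic residues made up 11.7% ± 2.19, 7.99% ± 0.266 and 6.09% ± 1.28. Their lowest library among the short ones (9.09%) was above the highest of 13 to 15 (8.48%), and the highest of the long ones (7.63%) was below the lowest of 13 to 15 (7.77%). The fall was not particular to acidic residues. Mean shares of basic (16.7%, 13.4% and 10.9%) and amide residues (8.51%, 6.66% and 4.39%) fell too. Those of aromatic (4.07%, 5.17% and 7.25%) and aliphatic residues (9.50%, 11.9% and 15.2%) rose. In these groups the libraries of short and 13 to 15 overlapped. Proline, serine with threonine, and cysteine followed no such order.

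Clone size, taken as the number of cells with a sequence, gave no difference between the classes that passed a test. Found in 2 or more cells were 14.5% ± 7.45 of short, 13.4% ± 3.15 of 13 to 15 and 12.5% ± 6.25 of long sequences (mean over libraries ± SD, n = 6). The short minus 13 to 15 difference was 1.06 points ± 5.68, higher in 3 of 6 libraries, and the long minus 13 to 15 difference was -0.90 points ± 4.43, higher in 2 of 6. Exact two-sided sign-flip tests over the 6 libraries gave p = 0.625 and 0.719 (smallest possible 0.0312), adjusted over 16 values 0.767 each. In the short class the share was 19.6% and 22.3% in NonTg parenchyma, 14.7% and 19.2% in 5xFADTg parenchyma, 7.14% in NonTg meninges and 3.85% in 5xFADTg meninges. In the long class it was 13.1%, 16.9%, 14.7%, 15.5%, 14.9% and 0% in the same order, the last being 0 of 66 sequences, which allows up to 4.55%. The mean difference of the short class turned to -0.68 points without NonTg parenchyma replicate 2, and that of the long class to 0.60 without 5xFADTg meninges.

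**Figure D5:**
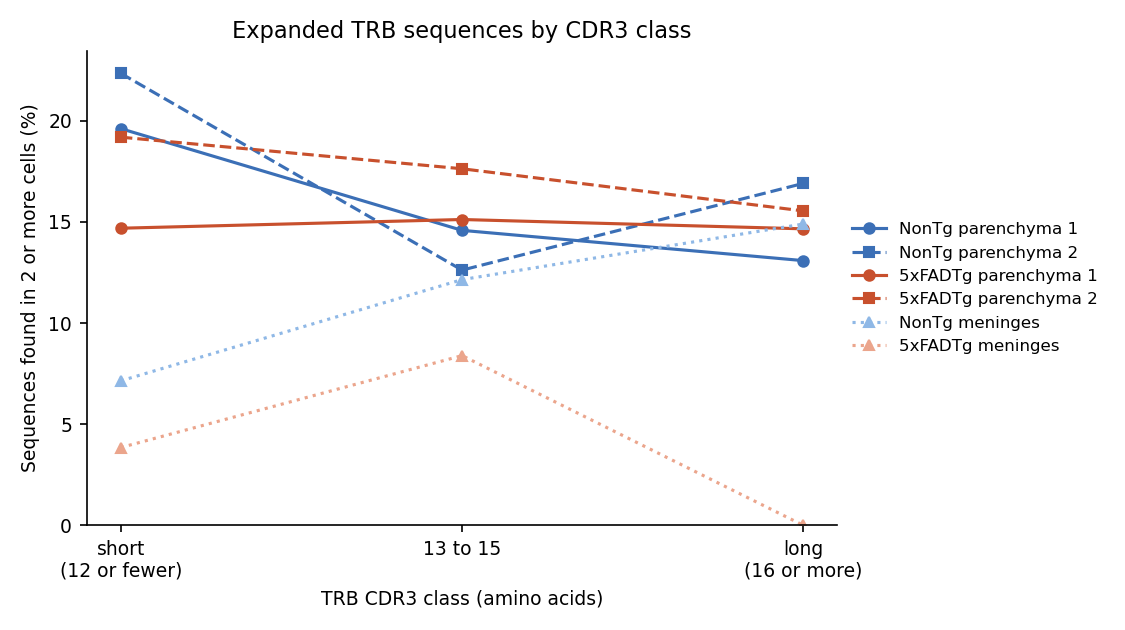
Share of sequences found in 2 or more cells (%) by CDR3 class, 1 line per library. The 4 parenchymal libraries lie between 12.6% and 22.3% in all classes, the meningeal ones between 0% and 14.9%.

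A few large clones held many of the cells of each class. The short TRBV1 and TRBJ2-5 sequence stood in 115 cells of 5xFADTg parenchyma replicate 2, which is 22.7% of the cells with a short sequence there, and in 18 cells of 5xFADTg meninges. Its main partner, TRAV10 with TRAJ42, was seen in 85 cells. The long TRBV1 and TRBJ1-4 sequence stood in 76 cells of 5xFADTg parenchyma replicate 1, 32.6% of the cells with a long sequence, and in 1 cell of 5xFADTg meninges. The long TRBV5 and TRBJ1-1 sequence stood in 82 cells of 5xFADTg parenchyma replicate 2 only, and the long TRBV19 and TRBJ2-1 sequence in 34 cells of NonTg parenchyma replicate 1 and 1 of NonTg meninges. Sequences of 10 or more cells numbered 17 among short (2.81%), 49 among those of 13 to 15 (1.66%) and 9 among long ones (1.62%).

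The class shares were next compared between genotypes, in the 2 parenchymal libraries of each. Short sequences made up 14.3% ± 1.95 in NonTg and 16.1% ± 0.718 in 5xFADTg parenchyma, and long ones 12.7% ± 1.2 and 13.4% ± 0.0387 (SD, n = 2). Exact two-sided permutation tests gave p = 0.667 and 1, adjusted 1 over 6 values, where 2 against 2 libraries cannot go below 0.333. Of all cells, 14.96% ± 0.957 and 19.2% ± 5.58 carried a short sequence. Leaving out the largest short clone of each library gave 13.8% and 13.2% for the NonTg libraries. The same step gave 13.3% and 18.9% for the 5xFADTg libraries. Without 1 library, the genotype difference in the short share of sequences (1.84 points) ran from 0.46 to 3.22 and that of cells (4.25 points) from 0.31 to 8.20, the lowest without NonTg parenchyma replicate 1 and without 5xFADTg parenchyma replicate 2. The expanded share of short sequences was 20.97% ± 1.93 in NonTg and 16.9% ± 3.18 in 5xFADTg parenchyma, without overlap, at the smallest p that the exact permutation test allows (0.333). Without 1 library this difference ran from -1.79 points (without 5xFADTg parenchyma replicate 1) to -6.29 (without 5xFADTg parenchyma replicate 2). That of long sequences was 14.99% ± 2.70 and 15.1% ± 0.626.

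Between tissues, the expanded share of short sequences was lower in the meninges, at 5.49% ± 2.33 (n = 2) against 18.95% ± 3.17 in parenchyma (n = 4), without overlap. A lower meningeal share was not particular to the short class. Of sequences of 13 to 15, 12.1% were expanded in NonTg and 8.39% in 5xFADTg meninges, against 12.6% to 17.6% in the parenchymal libraries. The long share of sequences was higher in the meninges, at 14.9% ± 1.33 against 13.1% ± 0.828, also without overlap. The difference of 1.87 points was 0.93 without 5xFADTg meninges (exact permutation p = 0.4) and 2.81 without NonTg meninges. The expanded short share and the long share both reached, over all 6 libraries, the smallest p of this design in an exact two-sided permutation test (0.0667), which was 0.2 after adjustment over 6 values, so neither passed. The short share was 12.5% in both meningeal libraries against 15.2% ± 1.60 (exact permutation p = 0.2). Meningeal libraries held 407 and 462 cells against 970 to 2058 in parenchyma, and fewer cells give fewer repeats of a sequence. The part of this in the expanded shares was not tested.

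Short and long meningeal sequences also occurred in the parenchyma of the same genotype. In NonTg this was so for 15 of 42 short sequences (35.7%, 95% exact Clopper-Pearson interval 21.6 to 52.0), 60 of 247 of 13 to 15 (24.3%) and 15 of 47 long ones (31.9%, 19.1 to 47.1). In 5xFADTg it was so for 8 of 52 short (15.4%, 6.88 to 28.1), 62 of 298 of 13 to 15 (20.8%) and 6 of 66 long ones (9.09%, 3.41 to 18.7). Parenchyma of the other genotype held 2 of the 247 NonTg and 1 of the 298 5xFADTg meningeal sequences of 13 to 15 and 0 of the short or long ones, which are fewer. Intervals and floors cover counting error only and pool the libraries of a genotype.

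Sharing of amino acid sequences between genotypes was not seen in the long class. Among distinct amino acid sequences, 10 of 563 short ones (1.78%, 95% exact interval 0.855 to 3.24), 30 of 2762 of 13 to 15 (1.09%, 0.734 to 1.55) and 0 of 533 long ones occurred in both genotypes, and the last count allows up to 0.563%. More than 1 nucleotide sequence for the same amino acids was found for 17 short (3.02%), 50 of 13 to 15 (1.81%) and 1 long sequence (0.188%). Bases between V and J were counted per nucleotide sequence and library, so 1 shared amino acid sequence can count several times. The 21 such entries of shared short sequences had 4.67 ± 2.76 bases (SD over entries), against 6.32 ± 3.33 in 559 others. Among those of 13 to 15 the values were 10.2 ± 2.85 in 71 and 10.1 ± 3.27 in 2736. Repeated entries are not independent, and the difference was not tested. Different joins gave the same short CDR3 within a genotype too, also with different V segments. Shown are 3 sequences with TRBJ2-3 from NonTg libraries that code for the same CDR3 amino acids with only 2 bases between V and J.
TRBV16, 1 cell of NonTg parenchyma replicate 1: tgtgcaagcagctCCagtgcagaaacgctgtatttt
TRBV29, 2 cells of NonTg parenchyma replicate 2: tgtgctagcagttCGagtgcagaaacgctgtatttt
TRBV29, 14 cells of NonTg parenchyma replicate 1 and meninges: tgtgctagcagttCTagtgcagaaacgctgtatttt
Across genotypes, another short CDR3 was coded by 2 sequences of TRBV12-1 with TRBJ2-7. They stood in 14 cells of NonTg parenchyma replicate 2 and meninges and in 1 cell of 5xFADTg parenchyma replicate 2. Both had TRAV9-2 with TRAJ52 as their most frequent partner and a TRA CDR3 of 14 amino acids.
NonTg: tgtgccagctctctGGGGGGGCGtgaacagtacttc
5xFADTg: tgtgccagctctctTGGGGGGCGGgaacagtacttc

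Alpha chains (TRA) pair with the beta chain in the same cell, and the most frequent one was taken as the partner. A partner was found for 512 of 605 short, 2457 of 2949 of 13 to 15 and 482 of 555 long sequences. The partner's CDR3 was 13.8 ± 0.0960 amino acids in short, 13.7 ± 0.0673 in 13 to 15 and 13.7 ± 0.202 in long sequences. It was longer in the short class than in 13 to 15 in 6 of 6 libraries, by 0.1603 ± 0.0874 amino acids. The exact sign-flip test gave its smallest p (0.0312), which was 0.167 after adjustment over 16 values, so the difference did not pass. By library it was 0.260 and 0.184 in NonTg parenchyma, 0.244 and 0.153 in 5xFADTg parenchyma, 0.0449 in NonTg meninges and 0.0751 in 5xFADTg meninges. In long sequences the difference was 0.0750 ± 0.220, higher in 3 of 6, and 0.0074 without NonTg meninges.

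No TRA V or J segment passed in either class. In edgeR 0 of 93 partner segments were called in the short class (0% of those tested) and 0 of 93 in the long class (0%), with 5 and 9 at an unadjusted p under 0.05. DESeq2 also called 0 in each, with 1 and 3 at an unadjusted p under 0.05. TRAV8-2 was with 0.829% ± 1.09 of short and 3.16% ± 0.516 of 13 to 15 sequences, lower in 6 of 6 libraries (log2 -1.94, SE 0.60, edgeR adjusted p 0.123). GENCODE M21 lists TRAV8-2 as a pseudogene, and copies with a D or N in their name were merged here. Which copy these chains used was not checked. TRAJ42 was with 0.339% ± 0.528 of long and 2.69% ± 0.679 of 13 to 15 sequences, lower in 6 of 6 (log2 -2.40, SE 0.76, edgeR adjusted p 0.0732). TRAV12-1 stood at 4.99% ± 4.64 of long against 1.24% ± 0.532 (log2 1.52, SE 0.46, edgeR adjusted p 0.0732), higher in 5 of 6. Each of these passed in 1 or 2 of the 16 alternatives, TRAV12-1 among them when 5xFADTg parenchyma replicate 2 was left out.

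Invariant natural killer T (iNKT) cells carry an almost fixed alpha chain and recognise lipids on CD1d. A partner of TRAV11 with TRAJ18 and a CDR3 of 15 amino acids, called iNKT-like from the receptor alone, stood beside 4.54% ± 2.22 of short, 5.18% ± 3.52 of 13 to 15 and 7.76% ± 2.94 of long sequences with a partner. The long share was higher in 5 of 6 libraries, by 2.58 points ± 3.0 (exact sign-flip p = 0.0625, adjusted 0.2). The largest gap was in NonTg meninges, at 11.6% against 3.56%, and without this library the difference was 1.48 points. The mucosal-associated invariant T (MAIT)-like chain, TRAV1 with TRAJ33 and 12 amino acids, stood beside 3 of 512 short (0.586%, 95% exact interval 0.121 to 1.70), 18 of 2457 of 13 to 15 (0.733%, 0.435 to 1.16) and 7 of 482 long sequences (1.45%, 0.586 to 2.97), with overlapping intervals. Of the expanded sequences with a partner, 29 of 98 short (29.6%, 95% exact interval 20.8 to 39.7), 121 of 404 of 13 to 15 (29.95%, 25.5 to 34.7) and 20 of 71 long ones (28.2%, 18.1 to 40.1) were seen with more than 1 TRA sequence as main partner across their cells.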

How the data were processed

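The members and segment lists were chosen with earlier results of these data known. The 6 deposited contig tables list V, D, J and CDR3 for each contig and cell, with raw read counts and UMI counts without normalization, per the file headers. Cell Ranger 6.0 and mm10 were used, per the submitters' processing notes, and the sources used here name no further filter. Here, productive TRB contigs were reduced to 1 entry per CDR3 nucleotide sequence and library. The joint V label TRBV12-2+TRBV13-2 (452 sequences) was counted as TRBV13-2 in the shares, the pairs and the sequences shown. Cells with 2 or more TRB were kept, and no doublet caller was run. The partner was the TRA with most UMIs in a cell, then the most frequent one over the cells of a sequence, and TRAV copies that differ by a D or N in their name were merged.

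Sequences per segment were tested with edgeR 4.0.16 (R 4.3.3, limma 3.58.1), with the number of sequences in each class and library as library size, segments of 10 or more sequences, library as block and Benjamini-Hochberg adjustment. DESeq2 1.42.0 was an alternative, fitted with a mean dispersion after a local fit, seen first, called fewer segments. SE is the log2 value divided by the root of F. Shares were compared by exact two-sided sign-flip tests within libraries (16 values) or permutation tests of the absolute difference between libraries (6 values each). The V match is the longest common start with the germline and the J match the longest common end, of any length, and a germline V was used where the median match of its sequences was 8 or more bases. Residues were first counted at fixed positions, which took in V-encoded ones, and, after those values were seen, only where the codon lies between the matches. Segments named are those past the threshold, the 5 TRBV and 3 TRBJ with most sequences, both D segments and the 3 with the smallest p per direction, fit and class. TRBV14, TRBV30 and TRBV31 were named after their values were seen. Sequences shown are the 3 in most cells per class, the shortest and longest, and examples of up to 5 amino acid sequences per class in most libraries. Alternatives changed the UMI minimum, class limits, counting unit, scaling and libraries. With limits of 11 and 17 amino acids, the reference class was 12 to 16. Single-library floors use 3 counts and intervals 95% exact limits. The gene expression samples were not analysed here.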

Additional observations from a re-analysis of the deposited data

Results flagged for a closer look

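The share of sequences with at least 1 cell that held 2 or more TRA chains differed in direction between the genotypes in parenchyma, for the long class. In 5xFADTg parenchyma, long sequences were above those of 13 to 15 amino acids in both libraries, by 4.88 and 5.42 points (mean 5.15), at 19.8% against 14.95% and 19.6% against 14.2%. In NonTg parenchyma they were below in both libraries, by 3.61 and 0.43 points (mean difference -2.02), at 10.3% against 13.9% and 11.3% against 11.7%. The second NonTg library held 71 long sequences, so a single sequence moves its share by more than 0.43 points. A scan of 16 class differences for opposite signs between 2 groups of libraries, by tissue and by genotype, flagged this item. The difference between the genotypes was not tested. In the meninges the long class was below in both genotypes, at 8.51% against 10.5% in NonTg and 4.55% against 9.40% in 5xFADTg.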

How the results depend on the processing

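Few sequences per class and library limit these results: meningeal classes hold 42 to 66 short or long sequences, and 2 against 2 libraries cannot pass a threshold. The 13 calls of the short class became 7 with DESeq2, 8 with limits of 11 and 17 amino acids and 3 with cells in place of sequences, where TRBJ2-7, TRBV20 and TRBV29 were lost, 10 to 11 when a library was left out, 10 each with TMM factors (4 higher, 6 lower), at least 2 UMIs or once per genotype, and 9 in cells with 1 TRB. TRBV2, TRBV5 and TRBD2 were lost in each of the last 4. The 13 of the long class ran from 12 to 13 without a library, and to 9 with cells. Partner segments gave 1 call (short) with TMM factors and 1 with at least 2 UMIs, and in the long class 2 with TMM factors, 1 with limits of 11 and 17, and 0 to 2 without a library.

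Signs turned as follows, and the cause was not tested. With limits of 11 and 17, the genotype difference (5xFADTg minus NonTg) became -0.31 points for the long share of sequences, -0.71 for that of cells and -3.69 for the expanded long share, the last also -1.69 in cells with 1 TRB. Under these limits the reference was 12 to 16 amino acids. Against it, the iNKT-like difference became 1.42 points for short and -0.37 for long, and the long TRA length difference -0.17 amino acids. The long expanded difference became 0.86 points from 3 cells upward and, in an alternative chosen after seeing the data, 0.48 when expanded was defined by the beta and alpha pair. The long difference in sequences with 2 or more TRA became 0.47 with at least 2 UMIs, 0.18 in cells with 1 TRB and 0.046 without iNKT-like sequences. Without 1 library, genotype differences ran from -0.065 to 1.63 points (long share of sequences), -0.83 to 3.52 (of cells) and -1.80 to 2.01 (expanded long share). Class differences ran from -0.68 to 2.27 (short expanded), -1.94 to 0.60 (long expanded), -1.63 to 0.68 (short iNKT-like) and -1.21 to 0.85 (long, 2 or more TRA).

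Among segments, none of those past the threshold turned. Of values the report does not print, TRBJ1-3 and TRBJ1-4 in long turned in 6 and 7 of 16 alternatives, TRBV10 and TRBV16 in short in 3 and 2, and TRBV29 in long in 2. TRAV14-3-DV8 became -4.02 in long with limits of 11 and 17, as did TRBJ2-5 -0.39 and TRBV13-1 0.076 in long and TRBV13-3 0.090 in short. With cells, TRBJ2-1 in long became -0.032, TRBJ2-5 in short 0.79, and TRBV13-2 -0.42 in short and -0.69 in long. TMM factors gave TRBJ2-5 -0.083 in long and DESeq2 TRBV13-2 -0.0027 in short. Without 1 library, TRBV13-1 in long ran from -0.26 to 0.037, TRBV13-2 in short from -0.049 to 0.11 and TRBV19 in short from -0.087 to 0.24.

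With the replicate number as a block (pairing parenchymal libraries 1 and 2), the genotype differences kept their size, 1.84 points for the short share and 0.78 for the long share, and the exact sign-flip p was 1 for both, with 0.5 the smallest possible; it changed no call. Deviations of same-numbered libraries correlated at 0.25 over 33 segment shares and over 14 lengths, which with 2 pairs does not show a pairing.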

Other observations

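The TRBJ1 cluster, which lies upstream of TRBD2 and the TRBJ2 cluster, gave 32.6% ± 4.45 of short, 36.2% ± 1.84 of 13 to 15 and 28.0% ± 4.78 of long sequences (mean over libraries ± SD, n = 6). The long class was lower in 5 of 6 libraries, from -14.3 points in NonTg parenchyma replicate 1 to 0.034 in NonTg meninges (exact two-sided sign-flip p = 0.0625, adjusted over 16 values 0.2). The short class was lower in 5 of 6 (p = 0.125 in the same exact test, adjusted 0.3), and 5xFADTg meninges was the exception with 40.4% against 36.9%.

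Mean TRB UMIs per cell were 10.8 ± 1.39 in short, 10.2 ± 0.789 in 13 to 15 and 9.39 ± 1.24 in long sequences, and neither difference from 13 to 15 passed (exact sign-flip p = 0.156 and 0.188, adjusted 0.3 each). A sequence that was short and ended without phenylalanine carried 11 UMIs in its cell and the other 5.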
